A study of Mus musculus with 39 samples.

Results

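The genes of the proteases that cut Pianp and related membrane proteins were followed by their RNA in 4 brain regions of mice that lack Pianp. Their list was drawn up by symbol and by no measured value, though earlier results of these data were known. It comprised 8 genes: Furin, the alpha-secretases Adam10 and Adam17, the beta-secretase Bace1, and the gamma-secretase subunits Psen2, Ncstn, Aph1a and Psenen. Each was read by 1 probe set (all probes of 1 gene, summarised to 1 value) among the 25429 on the array, of which 24675 carry 1 gene symbol. Expression had been measured in 39 samples from 10 experimentally naive male mice aged 8 to 48 weeks. The 5 PianpKO mice gave 20 samples, 5 each from amygdala, cortex, hippocampus and hypothalamus. The 5 control mice gave 19, with 4 from the amygdala and 5 from each other region. The 39 samples hold none from the amygdala of control mouse 4. PianpKO mice came from a cross of floxed mice with the B6.C-Tg(CMV-cre)1Cgn/J line, whose Cre is driven by the broadly active CMV promoter, so the deletion is constitutive and global. Control mice carried the floxed Pianp allele, which was made from Pianptm1a(KOMP)Wtsi with the FLPe line B6N.Cg-Tg(ACTFLPe)9205Dym/CjDswJ, and PianpKO mice carried the same allele after recombination.

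Pianp is a membrane protein of neurons that is shortened in steps. Furin and related proprotein convertases, serine proteases of the late secretory pathway, cut proproteins after clusters of basic residues. Metalloproteinases of the ADAM and MMP families then shed ectodomains at the cell surface, and gamma-secretase cuts the remaining stub within the membrane. The study names furin-like convertases, MMPs, Adam10, Adam17 and gamma-secretase as proteases of Pianp. Bace1 is not among those it names, and is included as the beta-secretase that competes with Adam10 for the amyloid precursor protein. In the brain the same enzymes process Notch, N-cadherin and neuregulins. RNA levels say nothing of the activity of these enzymes, which depends on zymogen cleavage, inhibitors and complex assembly.

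The labels were checked first. Pianp was lower in PianpKO mice, with log2 differences of -1.98 in amygdala, -2.12 in cortex, -1.95 in hippocampus and -2.04 in hypothalamus (limma, Benjamini-Hochberg adjusted p = 0.000117, 2.47e-06, 0.00121 and 2.51e-05), with no overlap between PianpKO and control samples in any region. In control mice 9 of 13 hypothalamus markers, 9 of 12 hippocampus markers, 7 of 9 cortex markers and 6 of 10 amygdala markers were highest in their own region. Among the hypothalamus markers Hcrt, Pmch, Nr5a1 and Hmx2 were not, and Pmch averaged 5.37 in the hypothalamus against 8.37 in another region. Marker levels of neighbouring structures also moved with the genotype. Of 12 markers of striatal projection neurons, 12 had lower means in PianpKO amygdala (median log2 difference -0.57), 12 in PianpKO hypothalamus (-0.42) and 12 in PianpKO hippocampus (-0.27), while 11 had higher means in PianpKO cortex (0.15). Of these, 9 in amygdala (background 8.07% of all probe sets) and 6 in hypothalamus (5.55%) had an unadjusted p under 0.05, and none passed after adjustment (limma). The mean of these 12 lay between 7.41 and 7.64 in PianpKO amygdala and between 7.87 and 8.50 in control amygdala, and that of 13 hypothalamus markers between 5.53 and 6.23 in PianpKO and between 4.82 and 5.80 in control amygdala. In the hypothalamus the striatal mean lay between 7.93 and 8.40 in PianpKO and between 8.22 and 9.01 in control mice. In the cortex 9 of 9 oligodendrocyte markers had higher means in PianpKO mice (median 0.18). Of these, 1 had an unadjusted p under 0.05 (background 11.2%), and none passed after adjustment (limma). The mean of these 9 lay between 9.54 and 9.83 in PianpKO and between 9.27 and 9.67 in control mice. The part of these markers in the comparisons of genotypes was not tested. Samples of 1 group correlated at 0.989 to 0.996 over all probe sets, and no pair was identical. The probe set of Gapdh, an abundant glycolytic enzyme, averaged 3.13 to 3.29 over the groups, under the median probe set of 4.62, so that a low value on this array does not show that a gene is little expressed. Values are therefore compared between samples for 1 gene, not between genes.

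No difference between PianpKO and control mice passed the test for any of the 8 genes in any region. At an adjusted p under 0.05, 0 of 8 passed in amygdala (background 0.00787% of all probe sets), 0 of 8 in cortex (0.0157%), 0 of 8 in hippocampus (0.00393%) and 0 of 8 in hypothalamus (0.00393%). Across the 32 pairs of gene and region, 14 values were higher and 18 lower in PianpKO mice, with a median log2 difference of -0.01. The median size of the difference was 0.0778 over the 32 pairs. By region it was 0.0829, 0.0761, 0.0998 and 0.0499 in amygdala, cortex, hippocampus and hypothalamus. Over all probe sets it was 0.0767, 0.0723, 0.0613 and 0.0628 in the same order. In no pair did PianpKO and control samples fail to overlap, against 2.46%, 2.11%, 0.775% and 0.936% of probe sets in amygdala, cortex, hippocampus and hypothalamus.

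**Figure D1:**
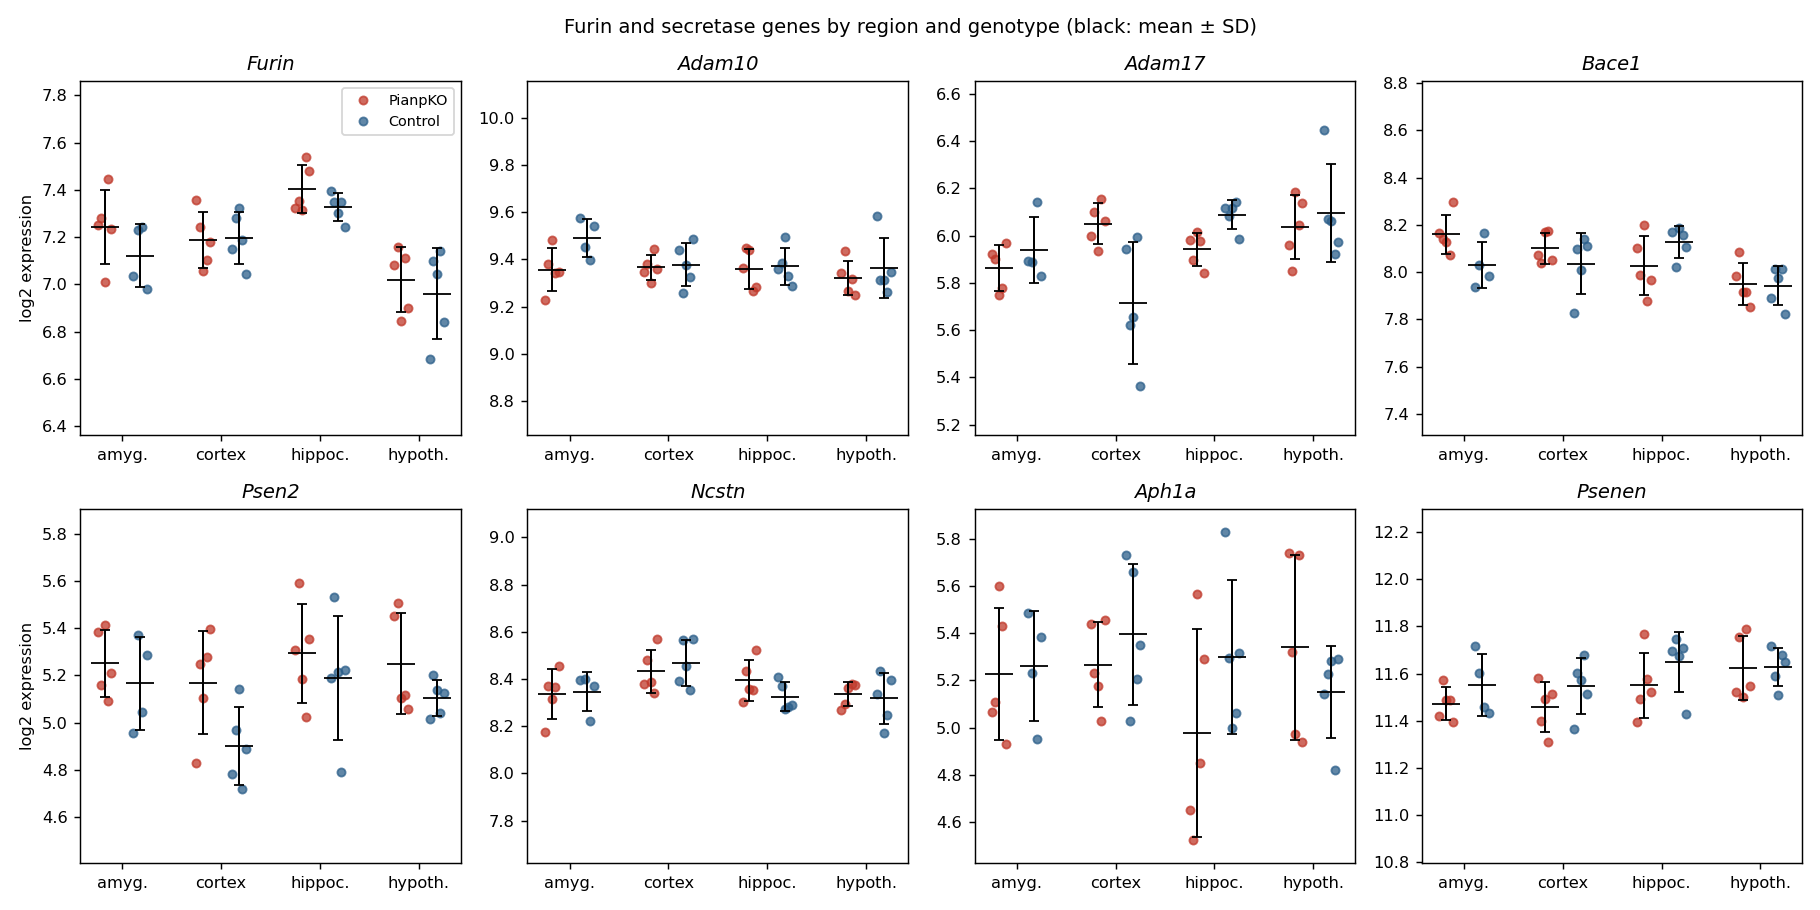
Normalised log2 expression of the 8 genes in each sample, by region, with PianpKO (red) left of control (blue) and the mean ± SD in black; all panels span the same height on the log2 axis. PianpKO and control samples overlap in every region for every gene, and Furin is lowest in the hypothalamus of both genotypes.

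The intervals give a range for each difference, without adjustment for the number of probe sets. Of the 32 intervals at 95%, 29 included 0, 22 lay wholly within ±0.3, 28 within ±0.5 and 31 within ±0.7 on the log2 scale. The widest reach was from 0.583-fold, the lower bound for Aph1a in the hippocampus, to 1.49-fold, the upper bound for Adam17 in the cortex. At an unadjusted p under 0.05, no gene passed in the amygdala (background 8.07%), Adam17 and Psen2 passed in the cortex (11.2%), Adam17 in the hippocampus (5.08%) and none in the hypothalamus (5.55%).

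**Figure D2:**
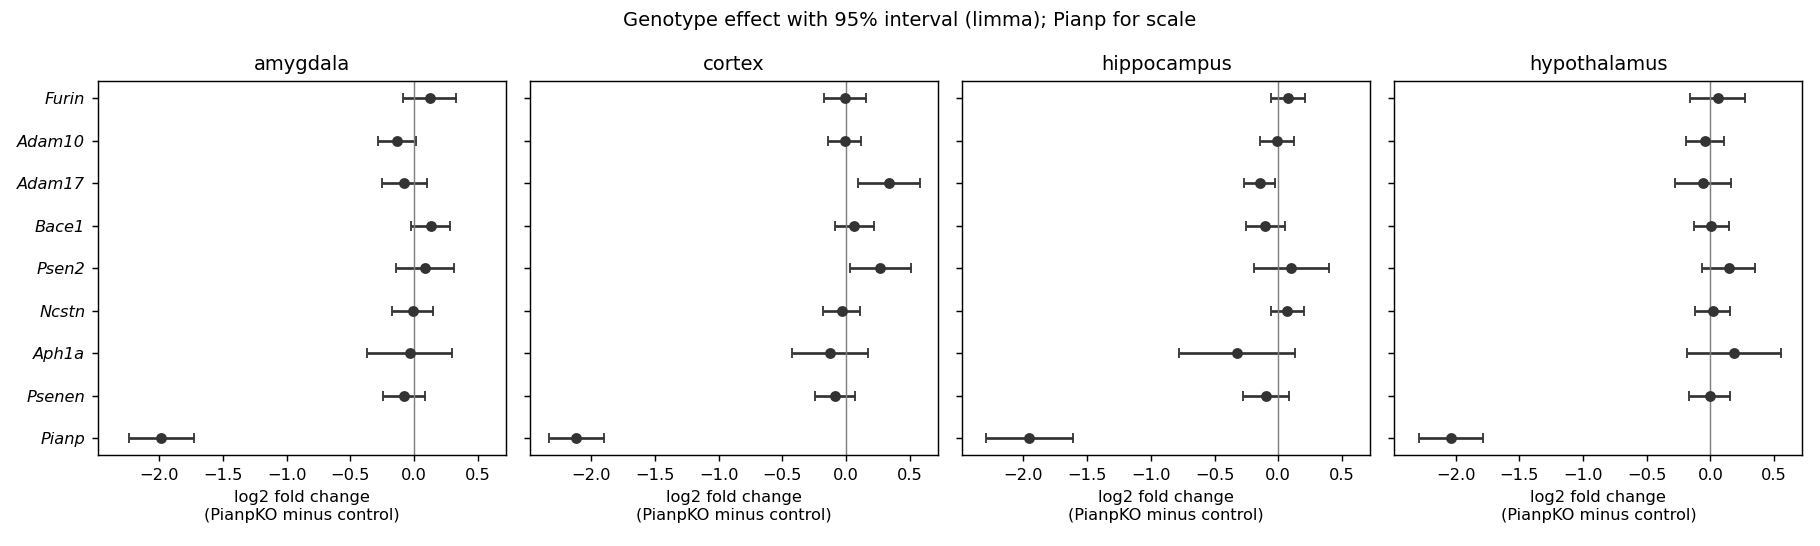
Log2 fold change of PianpKO minus control with its 95% interval (limma) for the 8 genes and, for scale, Pianp, 1 panel per region. Pianp lies near -2 in every region, while the 8 genes lie between -0.32 and 0.34.

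Furin, which opens the processing chain by removing propeptides in the trans-Golgi network, was the gene whose level depended most clearly on the region. Upstream sequences of Furin and Adam17 are shown because these were the members that differed between regions in control mice. RefSeq (GRCm38.p6) gives Furin a pair of start sites, both on the minus strand of chromosome 7, and Adam17 1 on the minus strand of chromosome 12. The 250 bases before each start are given 5′ to 3′, with GC boxes (GGGCGG on either strand) in capitals.
Furin, chr7:80405437-80405686: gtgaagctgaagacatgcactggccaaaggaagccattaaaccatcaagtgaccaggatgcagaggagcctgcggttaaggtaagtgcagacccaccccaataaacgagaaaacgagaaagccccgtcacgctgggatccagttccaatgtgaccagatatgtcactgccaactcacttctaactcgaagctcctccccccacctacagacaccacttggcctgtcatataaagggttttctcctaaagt
Furin, chr7:80402813-80403062: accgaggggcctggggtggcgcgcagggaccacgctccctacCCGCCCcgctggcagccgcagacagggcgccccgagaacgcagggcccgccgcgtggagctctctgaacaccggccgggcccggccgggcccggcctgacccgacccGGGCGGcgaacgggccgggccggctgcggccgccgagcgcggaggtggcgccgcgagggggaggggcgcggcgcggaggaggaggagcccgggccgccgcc
Adam17, chr12:21373633-21373882: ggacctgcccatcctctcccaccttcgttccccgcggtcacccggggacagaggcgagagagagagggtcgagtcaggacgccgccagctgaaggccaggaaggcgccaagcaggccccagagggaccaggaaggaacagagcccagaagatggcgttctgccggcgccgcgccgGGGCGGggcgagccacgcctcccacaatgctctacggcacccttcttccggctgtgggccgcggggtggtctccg
The first Furin sequence holds 50.4% G and C, no GC box and 1 TATA box (TATAAA on either strand). The second holds 83.2% G and C, 40 CpG dinucleotides and 2 GC boxes. The Adam17 sequence holds 70.4% G and C and 1 GC box. Over 10 upstream sequences found for 7 of the 8 genes, 5 held a GC box, against 32.7% of 32851 upstream sequences of all genes, and 1 held a TATA box, against 12.4%. The 10 sequences had a median G and C content of 60.6%, against 52.4% over all. A match describes the letters only.

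Furin read 7.08, 7.16, 6.85, 7.11 and 6.90 in the hypothalamus and 7.33, 7.35, 7.31, 7.54 and 7.48 in the hippocampus of PianpKO mice 1 to 5. In control mice 1 to 5 it read 6.68, 7.10, 7.04, 7.14 and 6.84 in the hypothalamus and 7.40, 7.35, 7.30, 7.35 and 7.24 in the hippocampus. Hypothalamus and hippocampus did not overlap in either genotype, and the hypothalamus was the lower one in 5 of 5 PianpKO and 5 of 5 control mice. In PianpKO mice 1 of 8 genes, Furin, differed over the 4 regions (background 26.9% of probe sets), with F = 8.63 and adjusted p = 0.00438 in limma with the mouse as a random block. In control mice 2 of 8, Furin and Adam17, did so (background 27.6%), and Furin had F = 8.15 and adjusted p = 0.00675. Furin's hypothalamus minus hippocampus difference was -0.38 ± 0.08 (SE) in PianpKO and -0.37 ± 0.08 in control mice (limma, adjusted p = 0.0014 and 0.00236), and it was the only one of the 8 genes called for this pair in either genotype (background 12.5% in PianpKO and 13.2% in control mice). The F of Furin had an adjusted p of 0.0754 without PianpKO mouse 5, and of 0.0632 in control mice without control mouse 1. The difference between hypothalamus and hippocampus held without any 1 mouse, with adjusted p up to 0.0314 in PianpKO and 0.0249 in control mice.

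The other regions lay between these. Furin averaged 7.24 ± 0.16 in the amygdala and 7.19 ± 0.12 in the cortex of PianpKO mice (SD, n = 5 each), and 7.12 ± 0.13 in the amygdala (n = 4) and 7.20 ± 0.11 in the cortex (n = 5) of control mice. The amygdala was below the hippocampus and above the hypothalamus in 5 of 5 PianpKO and 4 of 4 control mice. In PianpKO mice no neighbours in the order hippocampus, amygdala, cortex, hypothalamus passed the test, with limma adjusted p of 0.232, 0.742 and 0.143. In control mice, in the order hippocampus, cortex, amygdala, hypothalamus, neighbours had adjusted p of 0.313, 0.703 and 0.272. Hypothalamus minus cortex was -0.17 in PianpKO (adjusted p = 0.143; background 20.8%) and -0.24 in control mice (adjusted p = 0.029; background 23.0%), and the control value had an adjusted p of up to 0.12 when 1 mouse was left out and of 0.0553 with no block: it was lost without control mouse 1, 2, 3 or 5. Marker levels of other cell types also moved with the regions. The mean of 9 oligodendrocyte markers averaged 10.1 in the hippocampus of either genotype, 9.70 in the hypothalamus of PianpKO and 9.64 in the hypothalamus of control mice, and was lowest in the amygdala at 8.88 in PianpKO and 8.92 in control mice. That of 7 choroid plexus markers averaged 7.77 in the hippocampus and 5.98 in the hypothalamus of PianpKO mice, and 7.83 and 6.04 in those of control mice. Their part in the Furin difference was not tested. In dissected tissue, fewer cells of a type and less RNA per cell cannot be told apart.

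**Figure D3:**
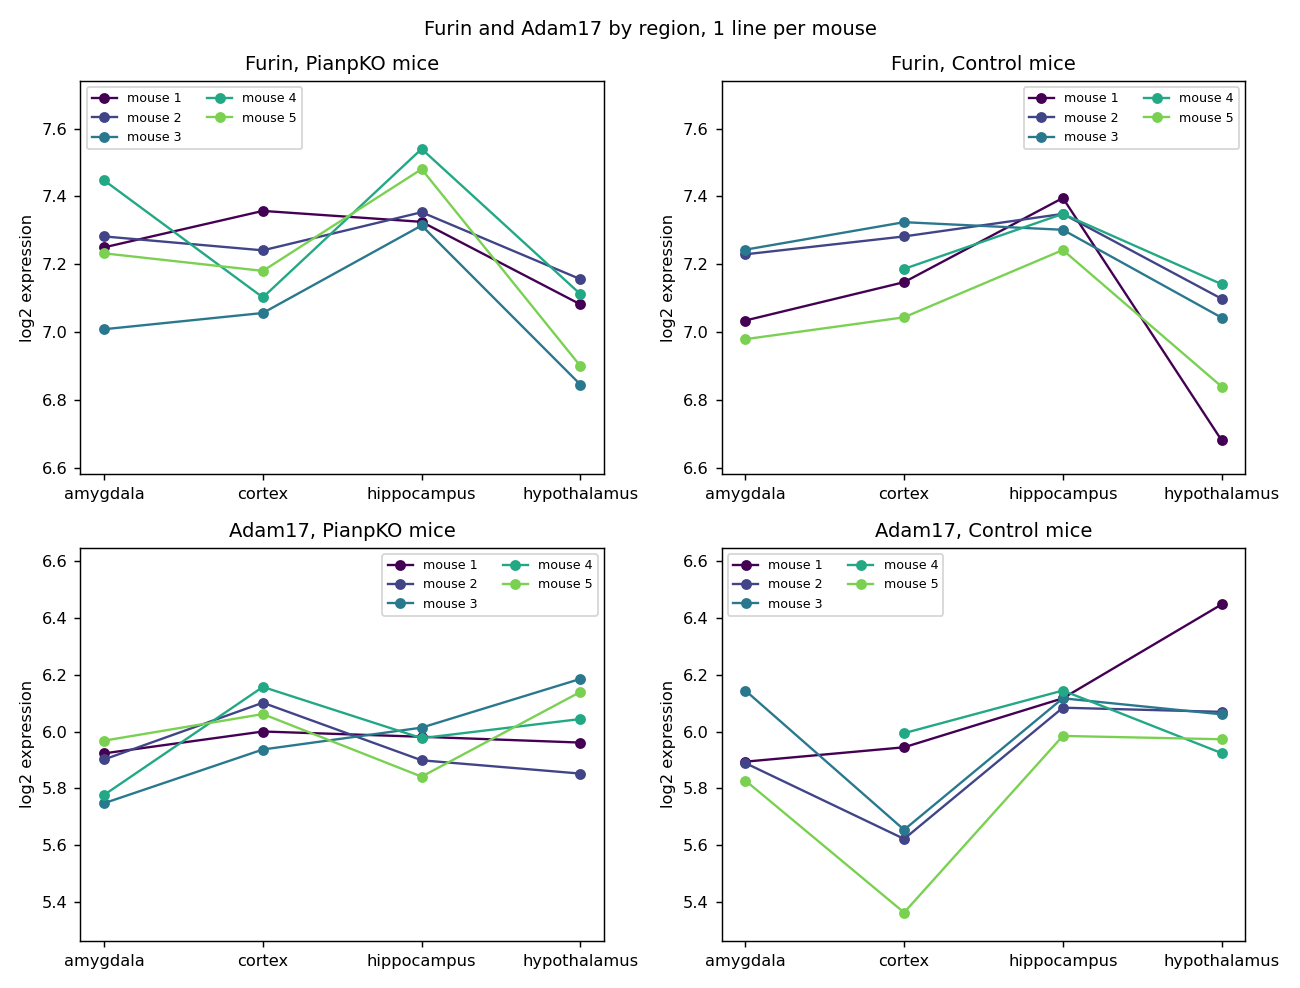
Log2 expression of Furin (top) and Adam17 (bottom) across the 4 regions, 1 line per mouse, PianpKO left and control right; control mouse 4 has no amygdala sample. Every Furin line is lower in the hypothalamus than in the hippocampus, and the cortex is the low point of Adam17 in control mice 2, 3 and 5.

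Between genotypes every interval of Furin included 0. The log2 difference of PianpKO minus control was 0.12 in amygdala (95% interval -0.09 to 0.33), -0.01 in cortex (-0.17 to 0.15), 0.08 in hippocampus (-0.06 to 0.21) and 0.06 in hypothalamus (-0.16 to 0.27). These bounds correspond to folds between 0.888 and 1.26. The 3 genes whose levels ran most like Furin's over the 39 samples were Nsmf, Pfkl and Ptgs2, with Pearson r of 0.848, 0.826 and 0.824; the samples share mice and regions, and these are descriptions.

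Among the alpha-secretases, Adam17, the sheddase that releases tumour necrosis factor, held the largest single difference between genotypes. In the cortex it read 6.0, 6.10, 5.94, 6.16 and 6.06 in PianpKO mice 1 to 5, against 5.94, 5.62, 5.65, 5.99 and 5.36 in control mice 1 to 5. The PianpKO values sat close together and 4 of 5 lay above every control value, while the control values spread widely. The difference was 0.34 ± 0.11 (SE), a 1.26-fold level with an interval of 1.07 to 1.49, and it did not pass over all probe sets (limma, adjusted p = 0.289). In the same cortex samples the oligodendrocyte markers averaged 9.65 in PianpKO and 9.50 in control mice, and their part was not tested. The exact two-sided permutation test over the samples gave p = 0.0317, where 0.00794 is the smallest p that 5 against 5 allows; 32 such tests were run, 1 for each pair of gene and region, and these p are not adjusted.

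In the hippocampus the values of Adam17 ran the other way. It read 5.98, 5.90, 6.01, 5.98 and 5.84 in PianpKO mice 1 to 5, against 6.12, 6.08, 6.12, 6.14 and 5.98 in control mice 1 to 5. Of the 5 PianpKO values 4 lay below every control value, and the striatal markers were lower there too, at a mean of 7.31 in PianpKO and 7.63 in control mice (overlapping ranges; their part was not tested). The difference was -0.15 ± 0.06 (limma, adjusted p = 0.958). The exact permutation test gave p = 0.0159, also not adjusted. Adam17 differed by -0.08 in the amygdala and by -0.06 in the hypothalamus, with intervals that included 0. The test of whether the genotype effect differed between regions gave Adam17 an F of 6.33 with an unadjusted p of 0.00154 and an adjusted p of 0.844. At an adjusted p under 0.05, 0 of 8 genes passed that test (limma; background 0% of probe sets), and at an unadjusted one Adam17 alone did (background 5.15%). Bace1 came next with an F of 2.47, and the other 6 had an F of 1.44 or less.

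Adam17 also differed between regions in control mice, with F = 6.03 and adjusted p = 0.0216, where PianpKO mice had F = 3.64 and adjusted p = 0.0967. The cortex was the low region of control mice. Hippocampus minus cortex was -0.11 in PianpKO (adjusted p = 0.334; background 14.7%) and 0.37 ± 0.10 in control mice (adjusted p = 0.0174; background 14.5%), and the hippocampus was the higher one in 1 of 5 PianpKO and 5 of 5 control mice. Hypothalamus minus cortex was -0.02 in PianpKO (adjusted p = 0.928) and 0.38 ± 0.10 in control mice (adjusted p = 0.0103). The amygdala was below the cortex in 5 of 5 PianpKO mice, by 0.19 on average (adjusted p = 0.0581; background 14.9%), and in 1 of 4 control mice, where the difference was 0.23 (adjusted p = 0.235; background 10.2%). That a difference passed in control and not in PianpKO mice is no test of the genotypes against each other, which the F of 6.33 above gives. The control F rested on few mice: adjusted p was 0.157 without control mouse 2, 0.0951 without mouse 3 and 0.108 without mouse 5. Without each of these mice hippocampus minus cortex no longer passed, with an adjusted p of up to 0.115, and hypothalamus minus cortex was lost without mouse 2 (adjusted p = 0.0703).

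**Figure D4:**
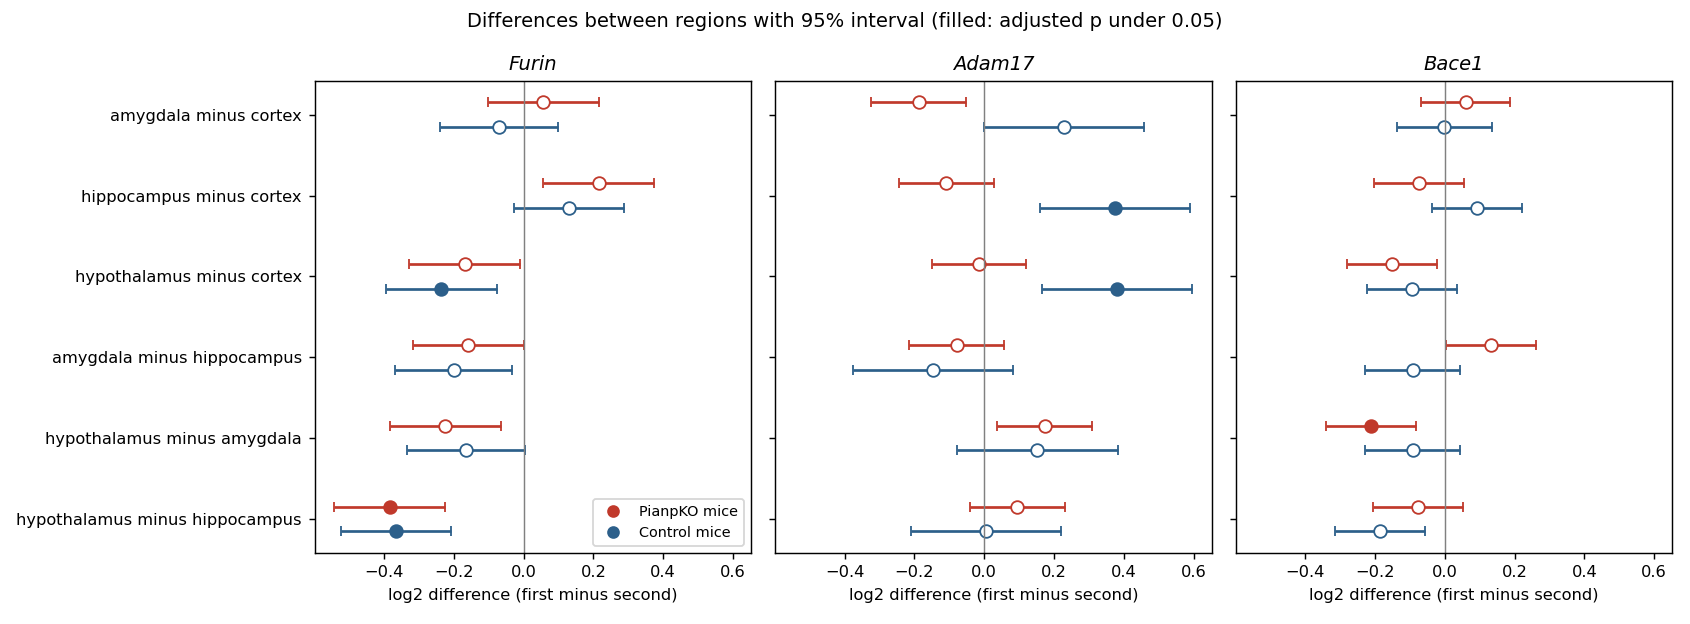
Log2 differences between regions, first minus second, for Furin, Adam17 and Bace1 with their 95% intervals (limma with the mouse as a random block), PianpKO mice (red) above control mice (blue); filled points have an adjusted p under 0.05. Furin's hypothalamus minus hippocampus difference lies at -0.38 in PianpKO and -0.37 in control mice, and Adam17's filled points are all in control mice.

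Adam10, the main constitutive alpha-secretase of neurons, varied little. Its group means ran from 9.32 to 9.37 over the regions of PianpKO mice and from 9.36 to 9.49 over those of control mice. The largest difference between genotypes was in the amygdala, where it read 9.23, 9.38, 9.48, 9.34 and 9.35 in PianpKO mice 1 to 5, against 9.57, 9.45, 9.40 and 9.54 in control mice 1, 2, 3 and 5. Of the 5 PianpKO samples 4 lay below every control sample. The difference of -0.13 (-0.29 to 0.02) did not pass (limma, adjusted p = 0.648), and the exact permutation test gave p = 0.0635 with 0.0159 as the smallest it could give. In these same amygdala samples the striatal and hypothalamic marker levels given above differed too, and their part was not tested. In the cortex, hippocampus and hypothalamus the Adam10 differences were -0.01, -0.01 and -0.04, and none of the 6 region pairs passed in either genotype.

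Bace1, the aspartyl protease that starts the amyloid-beta pathway, was lowest in the hypothalamus of both genotypes, at 7.95 ± 0.09 in PianpKO and 7.94 ± 0.08 in control mice (SD, n = 5 each). In PianpKO mice it was highest in the amygdala, at 8.16 ± 0.08 (n = 5), and in control mice in the hippocampus, at 8.13 ± 0.07 (n = 5). In the amygdala it read 8.16, 8.14, 8.13, 8.07 and 8.30 in PianpKO mice 1 to 5, against 7.94, 8.03, 8.17 and 7.99 in control mice 1, 2, 3 and 5. The hypothalamus was below the amygdala in 5 of 5 PianpKO and 4 of 4 control mice. The difference was -0.21 ± 0.06 in PianpKO mice (limma, adjusted p = 0.0434; background 6.67%) and -0.09 ± 0.07 in control mice (adjusted p = 0.503; background 7.41%). The PianpKO value was lost when any 1 of the 5 PianpKO mice was left out and with the mouse as a fixed block (adjusted p = 0.0674) or no block (0.0552), and its F over the regions did not pass (adjusted p = 0.0569). Hypothalamus minus hippocampus was -0.08 in PianpKO (adjusted p = 0.539) and -0.19 in control mice (adjusted p = 0.0534; 0.0303 in a fit over all 8 groups with the mouse as a block, and 0.0321 over probe sets above the median). Between genotypes Bace1 differed by 0.13 in amygdala (-0.02 to 0.29, adjusted p = 0.661), 0.07 in cortex, -0.10 in hippocampus and 0.01 in hypothalamus.

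Of the gamma-secretase subunits followed here, Psen2, a catalytic one, was the only one whose means were higher in PianpKO mice in all 4 regions. The differences were 0.09, 0.27, 0.10 and 0.14 in amygdala, cortex, hippocampus and hypothalamus. With 1 mouse left out, the amygdala value ran from 0.016 (without control mouse 1) to 0.15, and the hippocampus value from 0.0041 (without control mouse 4) to 0.19. In the cortex Psen2 read 4.83, 5.25, 5.10, 5.28 and 5.40 in PianpKO mice 1 to 5, against 4.78, 4.97, 5.14, 4.72 and 4.89 in control mice 1 to 5. Of the PianpKO samples 3 lay above every control sample and 1 lay below 3 of the 5 control samples. These are the cortex samples whose oligodendrocyte markers differed as given above. The cortical difference of 0.27 ± 0.11 (limma, adjusted p = 0.391) had an exact permutation p of 0.0714. Averaged over the regions in 1 fit of all 39 samples, Psen2 differed by 0.15 (0.02 to 0.29; unadjusted p = 0.0302, adjusted p = 0.29). In that fit 0 of 8 genes passed (background 0.319% of probe sets), and the other 7 averaged between -0.07 and 0.06. The Psen2 probe set read close to the median probe set of the array, and no pair of regions passed in either genotype.

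Ncstn, the subunit that receives the substrate, and Psenen, the small subunit needed for presenilin to cut itself, were the steadier subunits. The Ncstn means lay between 8.34 and 8.43 over the regions of PianpKO mice and between 8.32 and 8.47 over those of control mice, and the cortex was highest in both. Its differences between genotypes were -0.01, -0.04, 0.07 and 0.02 in amygdala, cortex, hippocampus and hypothalamus, and all 4 intervals lay within ±0.3. Psenen means ran from 11.46 to 11.62 in PianpKO and from 11.55 to 11.65 in control mice. Psenen means were lower in PianpKO mice by 0.08, 0.09 and 0.10 in amygdala, cortex and hippocampus. In the hypothalamus the difference was -0.005, and with 1 mouse left out it ran from -0.0466 to 0.0247. None of these passed (limma, adjusted p = 0.802, 0.720, 0.979 and 0.998). The gene most like Psenen over the 39 samples was Anapc13 with r = 0.779, followed by Atp5g3 and Uqcrh, which encode mitochondrial respiratory proteins, with 0.641 and 0.634. Ncstn was most like Asb13 at r = 0.726. For the remaining genes the highest r was 0.692 for Adam10 (4921517D22Rik), 0.669 for Adam17 (1110059E24Rik), 0.583 for Bace1 (Mink1), 0.673 for Psen2 (Snord111) and 0.604 for Aph1a (Tbc1d10c).

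Aph1a, the scaffold subunit, was the least precisely measured of the 8. In the hippocampus it read 4.65, 4.53, 5.57, 4.85 and 5.29 in PianpKO mice 1 to 5, against 5.83, 5.29, 4.999, 5.06 and 5.32 in control mice 1 to 5. The difference of -0.32 had an interval of -0.78 to 0.13, and the exact permutation p was 0.238. In the hypothalamus it was 0.19 (-0.18 to 0.56), in the cortex -0.13 (-0.43 to 0.17) and in the amygdala -0.04 (-0.37 to 0.30). The hippocampal difference of Aph1a did not pass (limma, adjusted p = 0.979), and its interval reached from -0.78 to above 0. The smallest change that these samples could show was not computed. The other scaffold genes Aph1b and Aph1c averaged 6.16 and 7.34 in PianpKO cortex, against 6.40 and 7.32 in control cortex, and the Aph1b difference of -0.23 did not pass (adjusted p = 0.347). Bace2, the homologue of Bace1, differed by 0.10, 0.05, 0.16 and -0.07 in amygdala, cortex, hippocampus and hypothalamus.

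The other genes of these pathways were compared in the same fits. Of 101 listed proteases, inhibitors, partners, regulators and substrates, 93 were measured, and 0 passed in any region. At an unadjusted p under 0.05, 11 were higher and 3 lower in PianpKO amygdala (15.1% of the 93; background 8.07%), 1 higher and 2 lower in the cortex (3.23%; background 11.2%), 2 higher in the hippocampus (2.15%; background 5.08%), and 3 higher and 1 lower in the hypothalamus (4.30%; background 5.55%). The medians over the 93 were 0.03, 0.03, 0.05 and 0.02 in amygdala, cortex, hippocampus and hypothalamus, where the medians over all probe sets rounded to 0.00. The share lay above the background in the amygdala. In the other regions it lay below the background, but rested on few genes. No test of these departures was run. Marker levels also moved with the genotype, as given above, and their part in these shares was not tested.

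By group, 5 convertase inhibitors and helpers were led by Pcsk1n, which encodes the proSAAS inhibitor of Pcsk1, at 9.33 in PianpKO and 8.99 in control amygdala (difference 0.34, adjusted p = 0.492). The 6 other convertases were led by Pcsk6, with 0.21 in the amygdala (adjusted p = 0.571). Of 9 trafficking partners of Adam10 and Adam17, the iRhoms and TspanC8 tetraspanins among them, 9 had means above the control in amygdala (median 0.17), 8 in cortex (0.04), 7 in hippocampus (0.09) and 9 in hypothalamus (0.13), while between 48.7% and 50.0% of all probe sets did. In amygdala, hippocampus and hypothalamus 12 of 12 striatal markers had lower means in PianpKO mice, and their part was not tested. None of the 9 passed, and Tspan33 led with 0.29 in the amygdala (adjusted p = 0.564). Actb, a housekeeping gene, differed by 0.23 in the amygdala and 0.26 in the hypothalamus of the same mice. Of 10 regulators, Rtn4, whose product Nogo binds Bace1, was lower in PianpKO amygdala at 10.3 against 10.5 in control amygdala (adjusted p = 0.506). The 11 metalloproteinases were led by Mmp2 (0.18 in the amygdala) and their 5 inhibitors by Timp2 (0.21 in the amygdala). The 6 other ADAM proteases were led by Adam33, with 0.18 in the hypothalamus. Of 32 substrates, the synaptic adhesion protein Nlgn1 led with -0.20 in the cortex (adjusted p = 0.357), and of 7 other intramembrane proteases Rhbdl1 with 0.33 in the hypothalamus (adjusted p = 0.801).

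The same genes were tested between regions. In PianpKO mice 51 of 93 (54.8%) differed over the 4 regions, and in control mice 49 of 93 (52.7%), against the background of 26.9% and 27.6%. Of the 8 secretase and convertase genes 1 (12.5%) and 2 (25%) did so in PianpKO and control mice. Pcsk1, the convertase of dense-core vesicles, had F = 29.9 and 36.0 in PianpKO and control mice, and Timp2, an inhibitor of metalloproteinases, had F = 81.8 and 92.5, where Furin had 8.63 and 8.15. The difference in share between the lists was not tested.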

How the data were processed

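Total RNA of dissected brain regions was hybridised to Affymetrix Mouse Gene 2.0 ST arrays, 1 per mouse and region. The authors used quantile normalisation and a custom chip definition (version 21) that gives each Entrez gene 1 probe set, and the submitters' processing notes name RMA. The deposited values are log2 expression values, with array medians between 4.62305 and 4.62315. Quantile normalisation gives every array nearly the same distribution, so a change shared by most genes cannot be seen, and RMA brings low values closer together. For the genome build, the sources used here name none.

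Groups came from the labels. All 24675 probe sets with 1 symbol matched RefSeq genes, and 754 were unnamed. Replicates were separate mice, and the number of arrays limits the precision. The ages of single mice, within 8 to 48 weeks, were not used. The number shared by a mouse's labels was read as the mouse.

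PianpKO minus control was fitted per region with limma 3.58.1 in R 4.3.3 (lmFit, eBayes), with no filter, and Benjamini-Hochberg adjustment covered all 25429 probe sets, with 0.05 as threshold. Regions were compared within each genotype with duplicateCorrelation (statmod 1.5.0) taking the mouse as a random block, and so was the genotype effect between regions over all 39 samples. The mean effect over regions was added after the data were seen. Single genes were also tested with two-sided exact permutation tests. The fits were tested on simulated data. For the genotype effect, a planted log2 change of 0.3 was called in 11, 12, 13 and 14 of 67 probe sets in amygdala, cortex, hippocampus and hypothalamus. A planted change of 0.7 was called in 54, 54, 53 and 55 of 67, so small changes were mostly missed. Intervals are at 95%.

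The members and gene lists were chosen with earlier results of these data known. Of each other list, the text names the gene with the smallest unadjusted p in any region, and for each member the genes with the highest Pearson r. The labels do not say that PianpKO and control mice of the same number share a litter or batch, and their deviations from the group means correlated at -0.09 to 0.24. Some genes are not reported here.

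Alternatives were other normalisations, a filter on dim probe sets, other variance estimates, array weights, other blocks, a fit over all 8 groups and leaving out each mouse in turn.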

Additional observations from a re-analysis of the deposited data

Results flagged for a closer look

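Of 64 groups of gene, region and genotype, 3 held a sample far from the others of its group, where chance gives about 1 in 20. In the hypothalamus of control mouse 1, Adam10 read 9.58, while the other control mice lay between 9.26 and 9.35, and Adam17 read 6.45, while the others lay between 5.92 and 6.07. In the hippocampus of control mouse 5, Psenen read 11.43, while the others lay between 11.67 and 11.75.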

How the results depend on the processing

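No difference between genotypes passed for any of the 8 genes under the 9 other settings (288 values) or with 1 mouse left out (312 values), and none passed for the mean over regions (24 and 80 values) or for the difference between regions (24 values). With array quality weights Ncstn and Aph1a in the amygdala turned to 0.0239 and 0.0166, and Bace1 and Psenen in the hypothalamus to -0.00266 and 0.0266. In control mice the Bace1 amygdala minus cortex difference turned to 0.0107 with the mouse as a fixed block, 0.0238 with weights and 0.00185 over probe sets above the median, and Adam17 hypothalamus minus hippocampus turned to -0.015 with weights. In PianpKO mice 2 of the 8 genes, Furin and Bace1, passed between regions with weights, in a fit over all 8 groups with the mouse as a block, and over probe sets above the median. Across the alternative settings 6296 to 7316 probe sets passed between regions in PianpKO mice, against 6828 of 25429 in the main fit. The setting limited to probe sets above the median tested fewer of them. Calls between regions also changed by setting. In control mice Furin hypothalamus minus cortex was lost with no block (adjusted p = 0.0553), and Bace1 hypothalamus minus hippocampus was gained in the fit over all 8 groups with the mouse as a block (0.0303) and over probe sets above the median (0.0321). In PianpKO mice Bace1 hypothalamus minus amygdala was lost with a fixed block (0.0674), no block (0.0552) and a trended robust prior (0.0508). Gained in PianpKO mice were Furin hippocampus minus cortex with a fixed block (0.0389), weights (0.0332) and probe sets above the median (0.0315), Furin hypothalamus minus amygdala with weights (0.04) and above the median (0.0388), Bace1 hypothalamus minus cortex with weights (0.0474), and Adam17 amygdala minus cortex above the median (0.0338). The cause of these changes was not tested.

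All probe sets called for the genotype, against 2 in amygdala, 4 in cortex, 1 in hippocampus and 1 in hypothalamus, numbered 6, 21, 4 and 2 in these regions in a fit over all 8 groups without a block and 9, 22, 5 and 2 with the mouse as a block. With a trended robust prior they numbered 4 in the amygdala and 13 in the cortex, with weights 1 and 34, with the replicate number as a block 1 and 2. By an ordinary linear model they were 1 in the amygdala and 0 in the hippocampus, and over probe sets above the median 1 in the amygdala. The replicate block changed no call of the 8 genes.

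With 1 mouse left out, 0 to 1 of the 8 genes were called between regions in PianpKO and 1 to 2 in control mice. Of all 25429 probe sets, 5276 to 6245 and 4963 to 6849 were called between regions in these fits. Probe sets called for the genotype numbered 1 to 2 in the amygdala, 2 to 47 in the cortex (9 without control mouse 5, 47 without control mouse 2) and 1 to 2 in the hippocampus. Differences near 0 changed sign. In the amygdala Ncstn ran from -0.0519 to 0.0301 and Aph1a from -0.14 to 0.0386. In the cortex Furin ran from -0.0516 to 0.0236 and Adam10 from -0.0412 to 0.0159, and in the hippocampus Adam10 ran from -0.0328 to 0.0204. In the hypothalamus Furin ran from -0.0114 to 0.104, Adam10 from -0.0693 to 0.0133, Adam17 from -0.101 to 0.0297, Bace1 from -0.0271 to 0.0318, Ncstn from -0.0181 to 0.0479 and Psenen from -0.0466 to 0.0247. The mean over regions ran from -0.0319 to 0.0459 for Adam17, from -0.0148 to 0.0354 for Ncstn and from -0.122 to 0.00117 for Aph1a. Furin amygdala minus cortex ran from -0.0156 to 0.0974 and Adam17 hypothalamus minus cortex from -0.0811 to 0.0437 in PianpKO mice. Bace1 amygdala minus cortex ran from -0.0507 to 0.033 and Adam17 hypothalamus minus hippocampus from -0.0759 to 0.062 in control mice.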
